A study of Mus musculus with 12 samples.

Results

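The 10 genes of the splicing machinery described here were chosen by name: the SR proteins Srsf1, Srsf2, Srsf3, Srsf5, Srsf6, Srsf7 and Srsf11, the SR-related protein Tra2a, and the SR protein kinases Clk1 and Clk4. They are 10 of 54356 annotated genes in the files. For each gene the reads of all its transcripts were summed, and the shares of those reads on transcripts that the annotation types as retained intron or as nonsense-mediated decay (NMD) were computed in every library.

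The libraries came from mouse primary neural stem cells of 2 genotypes, wild type and Chd5-/-. Cells of all groups had been kept in DMEM/F-12 with N-2, BSA, antibiotics, EGF and FGF2. For differentiation all were moved to neurobasal medium with B-27, BSA, L-glutamine and antibiotics, and RNA was taken with Trizol 3 h or 48 h later. This gave 4 groups of 3 polyA-selected, stranded RNA-seq libraries: wild type at 3 h, Chd5-/- at 3 h, wild type at 48 h and Chd5-/- at 48 h. The labels give no animal age, do not say whether replicates were separate cultures, and do not give the deleted part of Chd5. The p-values therefore measure the spread between these libraries, which may be technical.

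Libraries held between 14.11 M and 18.71 M reads in the deposited tables. Chd5, a chromodomain helicase, had 3.54, 3.93 and 4.66 CPM (reads-per-million after edgeR's TMM scaling) in wild type and 5.25, 6.31 and 7.06 in Chd5-/- at 3 h. At 48 h it had 6.59, 7.15 and 5.28 in wild type and 5.7, 3.34 and 2.96 in Chd5-/-. The summed level therefore does not check the genotype, and Chd5-/- below means the libraries labelled so. Neural stem cell markers summed to 4260 to 9150 CPM in every library, and microglial and endothelial markers to at most 0.336 and 0.943. There were 3 libraries that stood apart. Wild-type 3 h replicate 1 had 15.5% of its reads on ribosomal protein genes (3.3% to 4.17% in the others) and a read-weighted mean transcript length of 1806 bases (3042 to 3306). Replicate 2 of both 48 h groups kept mitosis markers at 1880 and 1730 CPM, against 109 to 121 in the other 48 h libraries and 1590 to 2990 at 3 h. Results are given with all 12 libraries and, where they differ, with the 9 others. That set keeps only replicates 2 and 3 of wild type at 3 h and replicates 1 and 3 of each 48 h group. Its small SE and p-values measure the spread left among libraries that lay close together.

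In GRCm38 the genes lie as follows: Srsf1 at chr11:88047373-88053755 (+ strand), Srsf2 at chr11:116849901-116853094 (-), Srsf3 at chr17:29032628-29043373 (+), Srsf5 at chr12:80945504-80950507 (+) and Srsf6 at chr2:162931528-162937121 (+). Srsf7 lies at chr17:80200080-80207307 (-), Srsf11 at chr3:158010473-158036639 (-), Tra2a at chr6:49243924-49264033 (-), Clk1 at chr1:58410189-58424066 (-) and Clk4 at chr11:51261730-51281766 (+).

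SR proteins bind exons through RNA-recognition motifs and recruit the spliceosome through arginine-serine domains, and CLK kinases phosphorylate those domains and release SR proteins from nuclear speckles. SR genes limit their own output: an excess of the protein favours a transcript with a "poison" exon, whose early stop codon sends it to nonsense-mediated decay, or a transcript with an unspliced intron, which is kept in the nucleus or degraded. Clk1 and Clk4 are known for introns that stay unspliced in nuclear, polyadenylated RNA and can be spliced later.

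The NMD transcripts Srsf3-201, Srsf6-201, Srsf7-203 and Tra2a-202 each carry 1 exon that the main coding transcript of the gene lacks, and their reading frame ends inside it. The NMD shares below count reads on the whole transcripts, exons shared with other transcripts included. The stretches printed here show where each frame ends. Each runs from the first base of that exon to the stop codon, 5′ to 3′ on the RNA strand, as read from the GENCODE M21 transcripts (mouse GRCm38), with the stop codon in capitals. The exon of Srsf3-201 is exon 4, at chr17:29039454-29039909 (456 bases, + strand). The exon of Srsf6-201 is exon 3, at chr2:162932815-162933082 (268 bases, + strand). The exon of Srsf7-203 is exon 4, at chr17:80204622-80205081 (460 bases, - strand). The exon of Tra2a-202 is exon 2, at chr6:49252803-49253108 (306 bases, - strand).
Srsf3-201 exon 4: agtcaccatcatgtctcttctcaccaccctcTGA
Srsf6-201 exon 3: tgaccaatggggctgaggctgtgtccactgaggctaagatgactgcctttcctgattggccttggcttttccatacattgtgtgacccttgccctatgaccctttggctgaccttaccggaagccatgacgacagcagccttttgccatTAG
Srsf7-203 exon 4: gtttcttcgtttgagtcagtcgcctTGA
Tra2a-202 exon 2: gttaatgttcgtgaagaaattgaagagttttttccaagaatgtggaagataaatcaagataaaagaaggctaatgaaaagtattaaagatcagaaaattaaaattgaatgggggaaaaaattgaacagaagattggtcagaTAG

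The stop lay 34, 152, 28 and 144 bases into the exon of Srsf3, Srsf6, Srsf7 and Tra2a. It lay 548, 534, 699 and 964 bases before the last exon junction of the transcript. The reading frame was cut from 164 to 124 codons in Srsf3, from 339 to 135 in Srsf6, from 238 to 137 in Srsf7 and from 280 to 59 in Tra2a. Clk1 has another arrangement: Clk1-210 lacks exon 4 of the coding transcript Clk1-201 (91 bases), and its frame ends after 135 codons instead of 483.

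Retained-intron transcripts of 6 members keep a whole intron from within the coding part of the gene. The junctions of 4 of these introns are printed to show the sites left unspliced. Each donor line has 10 exon bases and 20 intron bases with the first 6 intron bases in capitals. Each acceptor line has the last 18 intron bases, with the last 2 in capitals, and 10 exon bases. The introns are intron 3 of Srsf3 (chr17:29038625-29040774, 2150 bases), intron 5 of Srsf5 (chr12:80947866-80949094, 1229 bases), intron 2 of Srsf6 (chr2:162932143-162933425, 1283 bases) and intron 3 of Srsf7 (chr17:80204388-80205261, 874 bases).
Srsf3 intron 3 donor: ctcggcgcagGTACTTgagagagcaccttt
Srsf3 intron 3 acceptor: tactgtttctgcttctAGatccccaaga
Srsf5 intron 5 donor: cagctggcagGTTTGTtgaaatacagtttt
Srsf5 intron 5 acceptor: taattgtcttgtgttaAGgatctcaaag
Srsf6 intron 2 donor: ggaagccgcaGTGAGTccttacccccgcgc
Srsf6 intron 2 acceptor: tcccttcatgtgataaAGgtggtggagg
Srsf7 intron 3 donor: gaagaagcagGTATTTaattaatgaaggaa
Srsf7 intron 3 acceptor: ttctaacttaaaaaatAGgtcacgatct

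All 4 introns begin with GT and end with AG. In Srsf3, Srsf6 and Srsf7 the poison exon lies inside the retained intron, so a read from that exon fits both an NMD transcript and a retained-intron transcript, and Salmon divides such reads by its model. In Tra2a it does not: Tra2a-203, the main retained-intron transcript, is a single exon of 3788 bases with 94.9% of its bases outside the exons of the coding transcript. Srsf1-203 is typed as retained intron but has 0 bases outside the coding exons of its gene, so its share rests on how reads common to several transcripts were divided. Other genes overlap 5 members. On the same strand Srsf11 overlaps Gm43362 by 2470 bases and Clk4 overlaps Gm25082 by 255. On the opposite strand Srsf2 overlaps Mettl23 and Mfsd11, Clk4 overlaps BC049762, Srsf1 overlaps Gm11508 and Tra2a overlaps Gm43980. The kit keeps the strand, and the strand setting used in quantification is not given in the sources used here.

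The retained-intron share rose between 3 h and 48 h for most members in wild type. In both genotypes every 48 h library lay above every 3 h library for 10 of 10 members (45% of the 5337 genes tested did so in wild type and 46.1% in libraries labelled Chd5-/-). By edgeR's quasi-likelihood test on the ratio of retained-intron reads to the gene's other reads, with Benjamini-Hochberg adjustment over all genes tested, 8 of 10 members rose in wild type and 0 fell (24.8% of all genes were called, 23.7% as higher). The members' median log2 change of that ratio was 2.77, against 1.30 over all genes tested. In libraries labelled Chd5-/- 2 of 10 were called, both higher (1.11% of all genes called, 0.974% as higher), and all 10 estimates were above 0, with a median of 1.95 against 0.77. Without the 3 libraries that stood apart, 10 of 10 rose in each genotype, where 37.4% and 34% of 5057 genes were called, 33.9% and 30.7% as higher. Estimates then ran from 0.63 to 3.12 in wild type and from 0.71 to 3.01 in Chd5-/-, and medians were 2.23 and 1.83, against 0.85 and 0.70 over all genes. Over all genes, retained-intron transcripts held 4.63% to 4.86% of a library's reads at 3 h, except 8.66% in wild-type replicate 1, and 6.58% to 8.59% at 48 h. In bulk RNA a change in the number of cells of a type and a change in RNA per cell cannot be told apart.

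**Figure D1:**
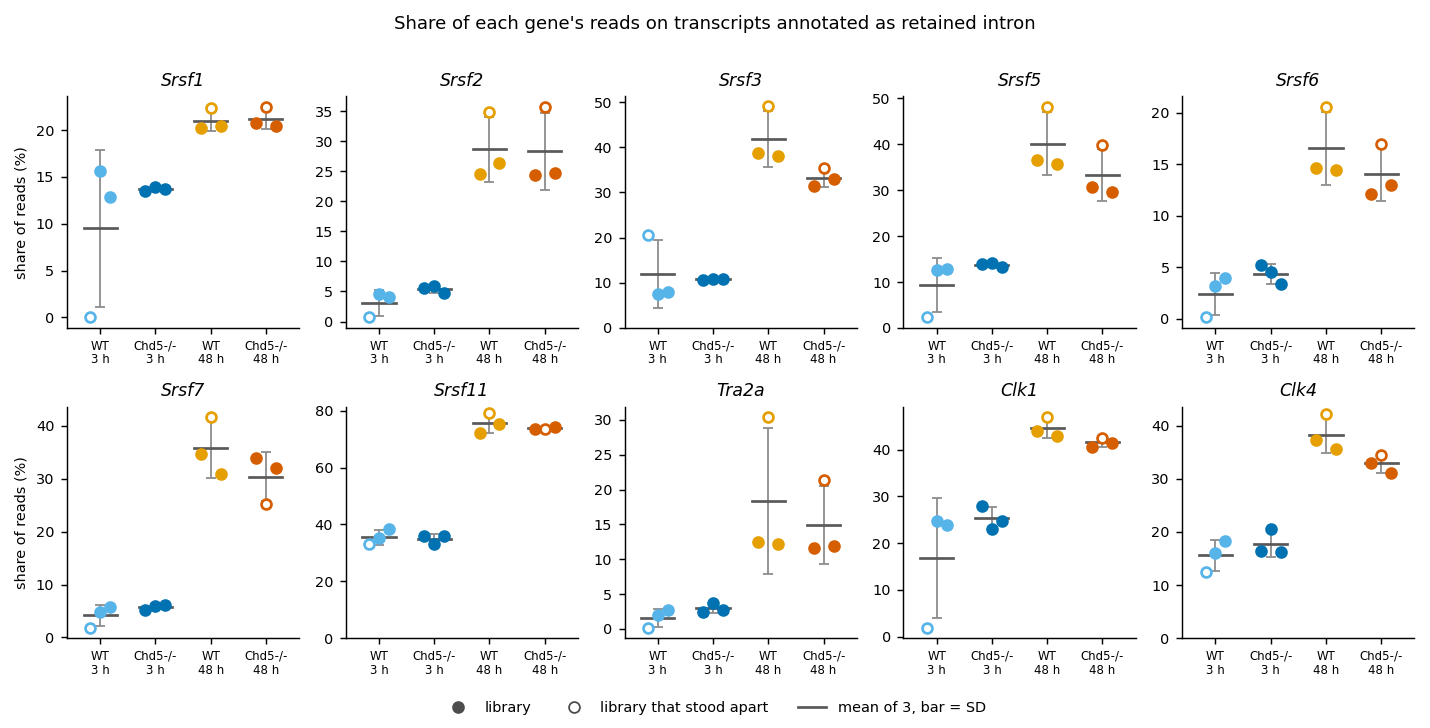
Share of each gene's reads on retained-intron transcripts (percent, vertical axes start at 0 or just below it) in the 12 libraries by genotype and time; points are libraries, open points the 3 that stood apart, lines the mean of 3 and bars the SD. In all 10 panels the 48 h points of a genotype lie above its 3 h points.

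Srsf2 encodes an SR protein that stays in the nucleus, and its retained-intron transcript Srsf2-203 keeps the intron after the coding part. In wild-type replicates 1 to 3 its share was 0.68%, 4.52% and 4.06% at 3 h and 24.6%, 34.9% and 26.5% at 48 h. Libraries labelled Chd5-/- held 5.65%, 5.83% and 4.73% at 3 h and 24.5%, 35.7% and 24.8% at 48 h. Replicate 2 was the highest 48 h library in both genotypes, and no 48 h value overlapped the 3 h values. The ratio rose by 3.96 ± 0.70 (log2, SE; adjusted p = 0.00839) in wild type and changed by 2.78 ± 0.66 (adjusted p = 0.0618) in Chd5-/-.

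Srsf7, an SR protein with a zinc knuckle that also takes part in mRNA export and polyadenylation site choice, had 1.86%, 4.78% and 5.83% in wild type at 3 h and 34.7%, 41.7% and 30.8% at 48 h. In Chd5-/- it had 5.26%, 5.94% and 6.13%, then 34%, 25.2% and 32.1%. Here replicate 2 was the highest of the 48 h libraries in wild type and the lowest in Chd5-/-. The ratio rose by 3.79 ± 0.50 (log2, SE; adjusted p = 0.0058) in wild type and by 2.83 ± 0.48 (adjusted p = 0.0319) in Chd5-/-.

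Srsf11 encodes an SR-related protein of the early spliceosome and had the largest retained-intron share of the 10 members in all 48 h libraries. Its values were 33%, 35.3% and 38.3% in wild type at 3 h and 72.2%, 79.2% and 75.3% at 48 h. In Chd5-/- they were 35.8%, 33% and 35.8%, then 73.6%, 73.5% and 74.3%. The libraries of one time lay close together, wild-type 3 h replicate 1 included, and no 48 h value overlapped the 3 h values. That replicate rested on 268 reads (2281 to 2670 in the other 3 h libraries) and on another mix of transcripts. It had 19.1% of the gene on Srsf11-213 (7.13% to 9.74% in the others) and 1.53% on Srsf11-208 (4.63% to 5.97%). The reads were spread over 11 retained-intron transcripts, of which Srsf11-213, Srsf11-208, Srsf11-211 and Srsf11-207 each reached 10% of the gene in some library. None of these keeps a whole intron of the main coding transcript. In that order, 16%, 82.3%, 13.8% and 11.4% of their bases lie outside the coding exons. For all but Srsf11-208 the share thus rests largely on how reads from shared exons were divided. The ratio rose by 2.50 ± 0.35 (adjusted p = 0.0058) in wild type and by 2.39 ± 0.35 (adjusted p = 0.0319) in Chd5-/-.

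Srsf3 encodes the smallest SR protein, which couples splicing to export. Its share was 20.6%, 7.43% and 7.88% in wild type at 3 h and 38.6%, 49% and 38% at 48 h. Libraries labelled Chd5-/- had 10.5%, 10.9% and 10.8%, then 31.4%, 35.4% and 33%. At 3 h wild-type replicate 1 was the highest library, unlike in the other SR genes. The ratio rose by 2.58 ± 0.50 (adjusted p = 0.0091) in wild type; in Chd5-/- it changed by 2.05 ± 0.49 (adjusted p = 0.0608).

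Srsf5 and Srsf6 encode SR proteins that act as splicing enhancer factors. For Srsf5 the wild-type share was 2.45%, 12.6% and 12.8% at 3 h and 36.5%, 48.1% and 35.8% at 48 h, nearly all of it on Srsf5-212, the transcript with intron 5 unspliced. In Chd5-/- Srsf5 had 13.9%, 14.1% and 13.3%, then 30.6%, 39.7% and 29.6%. Srsf6 in wild type had 0.13%, 3.19% and 3.98%, then 14.6%, 20.6% and 14.4%. The Chd5-/- libraries had 5.26%, 4.52% and 3.33%, then 12.2%, 17% and 13%. Replicate 2 was the highest 48 h library for both genes in both genotypes. In wild type the ratio rose by 2.95 ± 0.65 for Srsf5 (adjusted p = 0.0138) and by 3.45 ± 0.94 for Srsf6 (adjusted p = 0.0247). Both calls depended on single libraries: without wild-type 48 h replicate 2 the adjusted p was above 0.05 for each, and for Srsf6 also without replicate 1 or 3 of that group.

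Srsf1, the SR protein first purified as a splicing factor, had the smallest change in the 9 libraries. Its wild-type share was 0%, 15.6% and 12.9% at 3 h and 20.3%, 22.3% and 20.5% at 48 h. In replicate 1, 0 of 2592 reads were assigned to this class. Srsf1-203, its main transcript, has 0 bases outside the coding exons. The 0 therefore rests on how shared reads were divided and sets no upper limit on the share. In Chd5-/- the share was 13.5%, 13.9% and 13.7%, then 20.8%, 22.5% and 20.4%. The ratio changed by 2.18 ± 1.64 in wild type (adjusted p = 0.353) and by 0.76 ± 1.42 in Chd5-/- (adjusted p = 0.821) with 12 libraries, and rose by 0.63 ± 0.14 (adjusted p = 0.0124) and 0.71 ± 0.13 (adjusted p = 0.00592) with 9.

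Tra2a, which binds purine-rich exonic enhancers, had 0.19%, 1.93% and 2.71% in wild type at 3 h and 12.5%, 30.4% and 12.1% at 48 h. In Chd5-/- it had 2.45%, 3.75% and 2.74%, then 11.6%, 21.4% and 11.9%. In both genotypes 48 h replicate 2 was well above the other 48 h libraries, and no 48 h value overlapped the 3 h values. The ratio rose by 3.79 ± 0.79 in wild type (adjusted p = 0.0115) and changed by 2.48 ± 0.75 in Chd5-/- (adjusted p = 0.0965).

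Outside wild-type 3 h replicate 1, the kinase genes had a higher 3 h share than the SR genes except Srsf11. Clk1 had 1.91%, 24.6% and 23.8% in wild type at 3 h and 44%, 47% and 43% at 48 h; replicate 1 at 3 h rested on 162 reads. In Chd5-/- Clk1 had 28.1%, 23% and 24.8%, then 40.7%, 42.5% and 41.5%. The retained-intron reads were mainly on a transcript that keeps introns 3, 4 and 6, on Clk1-202 and on Clk1-213. Clk4 had 12.5%, 16% and 18.3%, then 37.3%, 42.1% and 35.6% in wild type. In Chd5-/- Clk4 had 16.4%, 20.5% and 16.2%, then 33.1%, 34.6% and 31.1%, mainly on Clk4-213 with introns 3 and 4. Clk4 rose in wild type by 1.76 ± 0.36 (log2, SE; adjusted p = 0.0107), and Clk1 changed by 2.28 ± 0.80 (adjusted p = 0.0583). The Clk4 call was lost with limma on log ratios of TPM (adjusted p = 0.128). In Chd5-/- the changes were 1.20 ± 0.36 for Clk4 (adjusted p = 0.0964) and 1.08 ± 0.75 for Clk1 (adjusted p = 0.435).

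**Figure D2:**
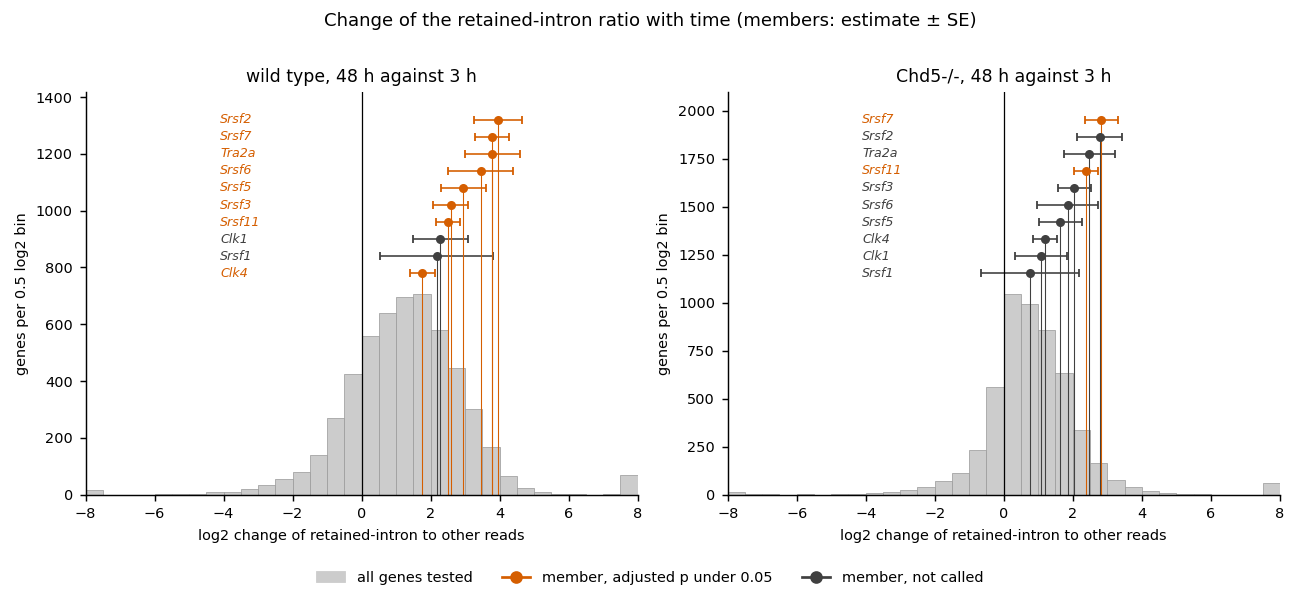
Distribution over the 5337 genes tested of the log2 change of retained-intron to other reads from 3 h to 48 h (grey bars, genes per 0.5 log2 bin; the end bins also hold the genes beyond the axis), with the 10 members placed above as estimate ± SE, orange where adjusted p was under 0.05. The members lie right of 0 in both genotypes, from 1.76 to 3.96 in wild type and from 0.76 to 2.83 in Chd5-/-; the medians over all genes are 1.30 and 0.77, and Srsf1 in Chd5-/- lies just under the median.

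The call in libraries labelled Chd5-/- depended on the library set. The spread was estimated over all 12 libraries, and without wild-type 3 h replicate 1 alone all 10 members were called in Chd5-/-, although that library is not in the contrast. With the replicate number as a block, 0 were called. The share of all genes called is not given here for these settings. In Chd5-/- it was 1.11% with 12 libraries and 34% with 9. For a single share the reads gave a 95% Wilson interval of at most 3.66 percentage points to either side (median 1.23) in the 11 libraries other than wild-type 3 h replicate 1, and of at most 7.15 (median 0.92) in that one. These intervals cover counting error only and leave out the error of dividing reads between transcripts.

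NMD shares differed less uniformly between the times. By the same test 0 of 10 members were called in wild type (0.465% of 2582 genes tested) and 0 in Chd5-/- (0.0775%) between 3 h and 48 h. At an unadjusted p under 0.05, 249 and 176 of all genes passed; among the members these were Srsf2 in wild type and Clk1 in Chd5-/-. Without the 3 libraries that stood apart, Srsf3, Srsf7 and Tra2a rose in wild type (3.52% of 2470 genes called, 2.11% as higher), and Srsf1, Srsf3, Srsf6 and Tra2a rose in Chd5-/- (4.86%, 2.87% as higher). No member fell in either set. Groups did not overlap, with 48 h higher, for 1 member in wild type, Srsf6 (13.7% of genes), and for 4 in Chd5-/-, Srsf1, Srsf3, Srsf6 and Clk1 (15%); Srsf2 was lower at 48 h without overlap in both genotypes (5.85% and 13.1%).

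**Figure D3:**
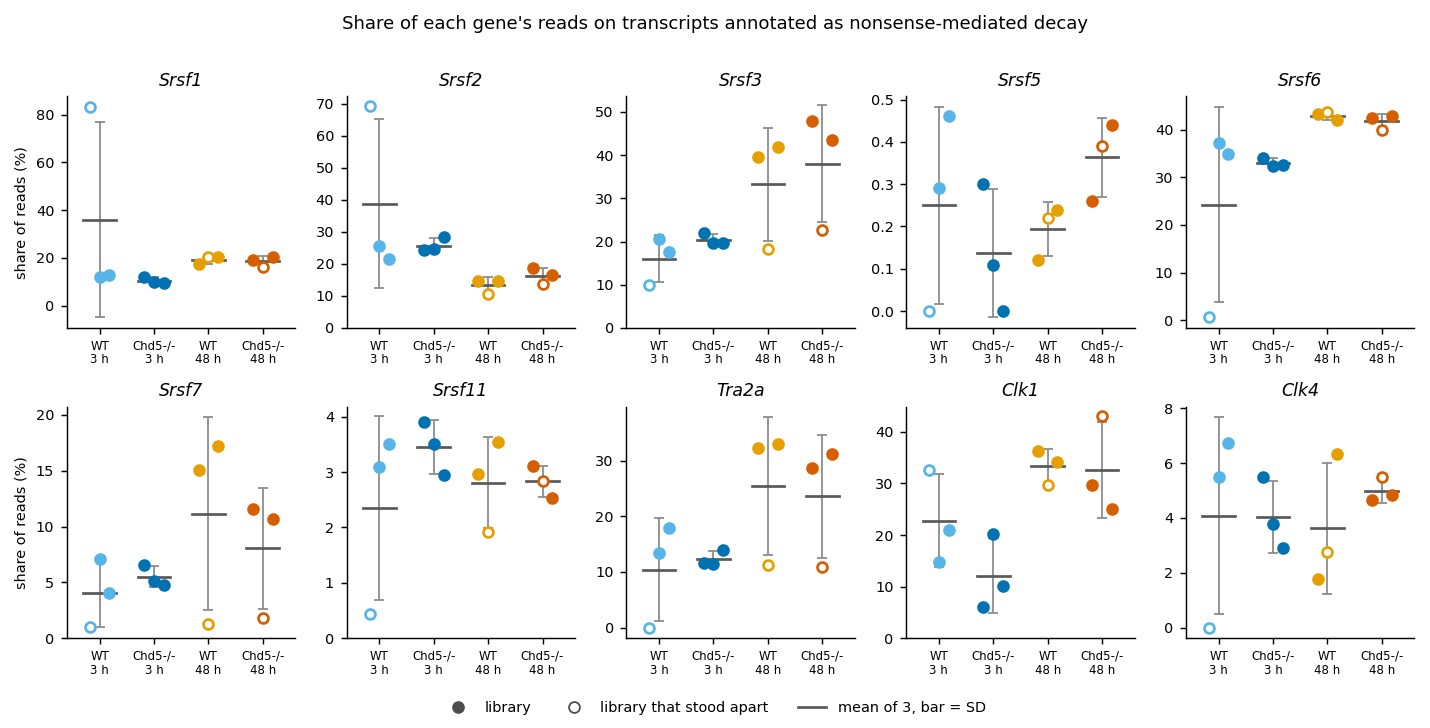
Share of each gene's reads on NMD transcripts (percent) in the 12 libraries by genotype and time; points are libraries, open points the 3 that stood apart, lines the mean of 3 and bars the SD. For Srsf3, Srsf7 and Tra2a the open points at 48 h lie near the 3 h points, and for Srsf1 and Srsf2 the open point at 3 h lies above all others.

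The poison exon transcripts of Srsf3, Srsf7 and Tra2a split the 48 h libraries by replicate. Srsf3 in wild type had an NMD share of 10%, 20.6% and 17.5% at 3 h and 39.7%, 18.2% and 41.8% at 48 h. The Chd5-/- libraries had 21.9%, 19.6% and 19.6%, then 47.8%, 22.6% and 43.6%. Replicate 2 at 48 h thus stayed in the range of the 3 h libraries or just above it, while replicates 1 and 3 were near or above 40%. Tra2a also had its lowest 48 h value in replicate 2 of each genotype, with 0%, 13.4% and 17.9%, then 32.3%, 11.2% and 33% in wild type. In Chd5-/- Tra2a had 11.7%, 11.5% and 13.9%, then 28.7%, 10.9% and 31.1%. Srsf7 had 1.03%, 7.07% and 4%, then 15%, 1.23% and 17.2% in wild type. In Chd5-/- Srsf7 had 6.55%, 5.12% and 4.78%, then 11.6%, 1.8% and 10.7%. Replicate 2 of both 48 h groups is the library with high mitosis markers, and its low NMD share goes with the highest 48 h retained-intron share of Tra2a and Srsf3 in both genotypes and of Srsf7 in wild type. The part of the mitosis markers in these values was not tested.

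In the 9 libraries the NMD ratio rose by 1.55 ± 0.17 for Srsf3 (log2, SE; adjusted p = 0.00782), by 1.77 ± 0.32 for Srsf7 (adjusted p = 0.0423) and by 1.40 ± 0.23 for Tra2a (adjusted p = 0.0293) in wild type. In Chd5-/- it rose by 1.72 ± 0.16 for Srsf3 (adjusted p = 0.00448) and by 1.61 ± 0.21 for Tra2a (adjusted p = 0.0148), and Srsf7 changed by 1.13 ± 0.29 (adjusted p = 0.0939).

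Srsf6 had a high NMD share at both times. It was 0.58%, 37.2% and 34.9% in wild type at 3 h and 43.2%, 43.6% and 42% at 48 h, all on Srsf6-201. In Chd5-/- it was 34.1%, 32.3% and 32.6%, then 42.5%, 39.9% and 42.8%. Wild-type 3 h replicate 1 had nearly no read on either the poison exon transcript or the retained-intron transcript, and 99.3% of its 1502 reads on coding transcripts.

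Srsf1 and Srsf2 showed the opposite in that library. Its NMD share was 83.2% for Srsf1 (12.1% and 12.7% in the other wild-type 3 h libraries) and 69.4% for Srsf2 (25.7% and 21.5%). At 48 h Srsf1 had 17.3%, 20.3% and 20.3% in wild type and 19.2%, 16.3% and 20.6% in Chd5-/-, against 12.2%, 9.94% and 9.58% in Chd5-/- at 3 h. Srsf2 went the other way: from 24.2%, 24.7% and 28.3% to 18.7%, 13.6% and 16.5% in Chd5-/-, and to 14.8%, 10.7% and 14.8% in wild type at 48 h. The ratio for Srsf2 changed by -1.90 ± 0.76 in wild type (adjusted p = 0.417) and by -0.84 ± 0.72 in Chd5-/- (adjusted p = 1).

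Clk1 had an NMD share of 32.7%, 14.8% and 20.9% in wild type at 3 h and 36.2%, 29.8% and 34.2% at 48 h. Chd5-/- libraries had 6.11%, 20.2% and 10.1%, then 29.7%, 43% and 25%. The reads moved between Clk1-210 and Clk1-211 from library to library, each of which was listed at 0 in several, so only their sum is used. Srsf5, Srsf11 and Clk4 had small NMD shares, at most 0.46%, 3.91% and 6.75% of the gene in any library.

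Because the poison exons of Srsf3, Srsf6 and Srsf7 lie within a retained intron, both transcript classes were also tested as 1 class (an alternative added with the data in view). In wild type 6 of 10 members rose by this measure (5.25% of 2571 genes called, 5.02% as higher): Srsf3, Srsf5, Srsf7, Srsf11, Clk1 and Clk4. In Chd5-/- Srsf3 and Srsf11 rose (0.622% of genes, 0.545% as higher). In the 9 libraries 10 of 10 rose in each genotype (18.1% and 18.4% of 2526 genes called, 15.8% and 15.6% as higher). Srsf3 had 30.6%, 28% and 25.4% of its reads on either class in wild type at 3 h and 78.3%, 67.3% and 79.8% at 48 h. The Chd5-/- libraries had 32.4%, 30.5% and 30.4%, then 79.3%, 58% and 76.6%. For Srsf3 replicate 2 was the lowest 48 h library on this sum in both genotypes. For Tra2a the sum was 44.8%, 41.6% and 45.1% in wild type at 48 h and 40.4%, 32.3% and 43% in Chd5-/-, so in wild type the replicates differed less than in either class alone.

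**Figure D4:**
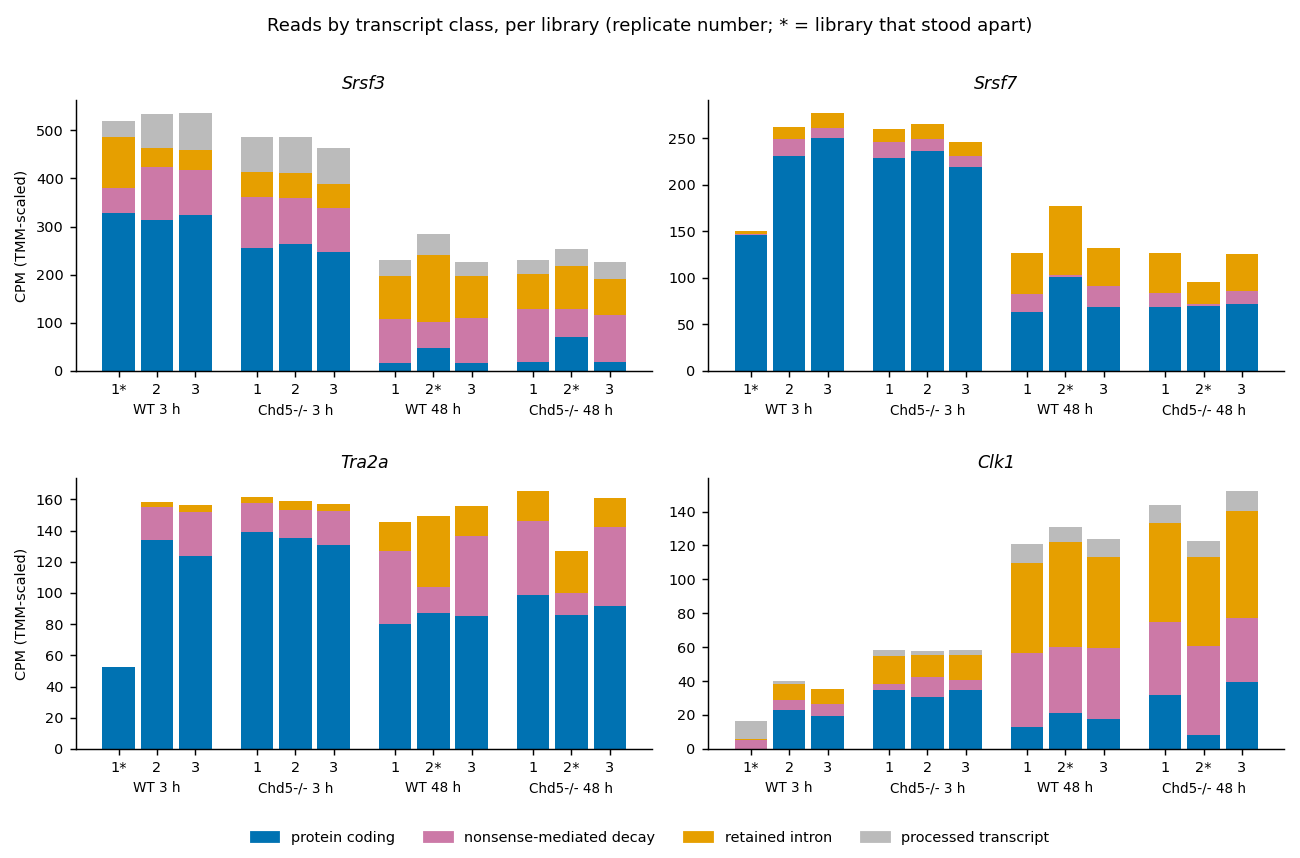
Levels in CPM (vertical axes from 0) of Srsf3, Srsf7, Tra2a and Clk1 in each of the 12 libraries, stacked by transcript class; numbers on the horizontal axis are replicates and an asterisk marks the 3 libraries that stood apart. The coding part of Srsf3 lies between 248 and 328 at 3 h and between 15.3 and 70.9 at 48 h, while the NMD and retained-intron parts of Clk1 are taller at 48 h.

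Gene totals separated the members into genes that rose, genes that fell and genes that were not called. From 3 h to 48 h in wild type, 4 members rose and 1 fell by edgeR's test on gene totals (22.9% of 16043 genes called, 12.7% as higher and 10.1% as lower). In Chd5-/- 2 rose and 2 fell (22.1%, 14.1% as higher and 8.03% as lower). Clk1 and Clk4 rose and Srsf3 fell in both genotypes. Without the 3 libraries that stood apart, 5 members rose and 5 fell in wild type and 5 rose and 4 fell in Chd5-/-, where 76% and 79% of 16489 genes were called. In wild type 37.6% of genes were called as higher and 38.4% as lower, and in Chd5-/- 38.9% and 40.1%.

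Of the members called, the kinases had the largest rises in wild type. Clk1 totals were 16.4, 39.9 and 35.6 CPM in wild type at 3 h and 121, 131 and 124 at 48 h. In Chd5-/- they were 58.1, 57.6 and 58.6, then 144, 123 and 152. Clk1 rose by 2.03 ± 0.30 (log2, SE; adjusted p = 0.00266) in wild type and by 1.26 ± 0.29 (adjusted p = 0.0115) in Chd5-/-. Clk4 totals went from 14.1, 27.2 and 26 to 66.7, 82.3 and 63.5 in wild type, and from 25.4, 29.4 and 25 to 81.8, 71.2 and 79.3 in Chd5-/-. Clk4 rose by 1.66 ± 0.26 (adjusted p = 0.00354) and by 1.54 ± 0.26 (adjusted p = 0.00281). No 48 h library overlapped a 3 h library for either kinase. The share of all genes without such overlap in gene totals is not given here.

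For Clk1 the reads of the coding transcript overlapped between the times. Clk1-201 had 0, 22.8 and 19.2 CPM in wild type at 3 h and 12.6, 21.2 and 17.4 at 48 h. In Chd5-/- the values were 34.9, 30.5 and 34.8, then 31.9, 8.13 and 39.4. Retained-intron reads of Clk1 went from 0.314, 9.83 and 8.48 to 53.1, 61.6 and 53.2 in wild type and from 16.3, 13.3 and 14.5 to 58.6, 52.2 and 63.1 in Chd5-/-, without overlap. For Clk4 the coding transcripts together went from 12.3, 21.3 and 19.5 to 40.7, 45.4 and 36.9 in wild type and from 19.8, 22.3 and 20.3 to 51, 42.7 and 50.9 in Chd5-/-, with no overlap. Biotype levels were not tested on their own, and the share of all genes without overlap in them is not given here.

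Totals of Srsf3 fell in both genotypes and those of Srsf7 in Chd5-/-. Srsf3 had 519, 534 and 536 CPM in wild type at 3 h and 230, 285 and 227 at 48 h. Libraries of Chd5-/- had 486, 486 and 463, then 230, 252 and 226. The log2 change of Srsf3 was -1.10 ± 0.19 in wild type (adjusted p = 0.00472) and -1.02 ± 0.19 in Chd5-/- (adjusted p = 0.00423). Srsf7 had 150, 262 and 277, then 126, 177 and 132 in wild type, where the change was -0.66 ± 0.26 (adjusted p = 0.0908). In Chd5-/- it went from 260, 265 and 246 to 126, 95.5 and 126, and fell by 1.15 ± 0.27 (adjusted p = 0.0124).

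The coding transcript of Srsf3 lay lower in every 48 h library than in any 3 h library. How many transcripts of other genes did so is not given here. Srsf3-202 had 328, 313 and 324 CPM in wild type at 3 h and 17, 48.4 and 15.3 at 48 h, and in Chd5-/- 256, 263 and 248, then 18.1, 70.9 and 17.9. The poison exon transcript Srsf3-201 had 52.1, 110 and 93.8, then 91.2, 52 and 94.7 in wild type, and 106, 95.5 and 90.4, then 110, 56.9 and 98.6 in Chd5-/-. At 48 h the coding transcript was thus highest, and the poison exon transcript lowest, in the replicate 2 libraries. Coding reads of Srsf7 went from 146, 231 and 250 to 63.4, 101 and 68.7 in wild type and from 229, 236 and 219 to 68.8, 69.7 and 72.1 in Chd5-/-. Those of Srsf11 went from 18.1, 83.9 and 81.4 to 48.2, 48 and 42.6 in wild type and from 89.9, 91.4 and 88.6 to 41, 40 and 39.3 in Chd5-/-, while its retained-intron reads in Chd5-/- went from 53.5, 47.6 and 51.8 to 130, 124 and 126.

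**Figure D5:**
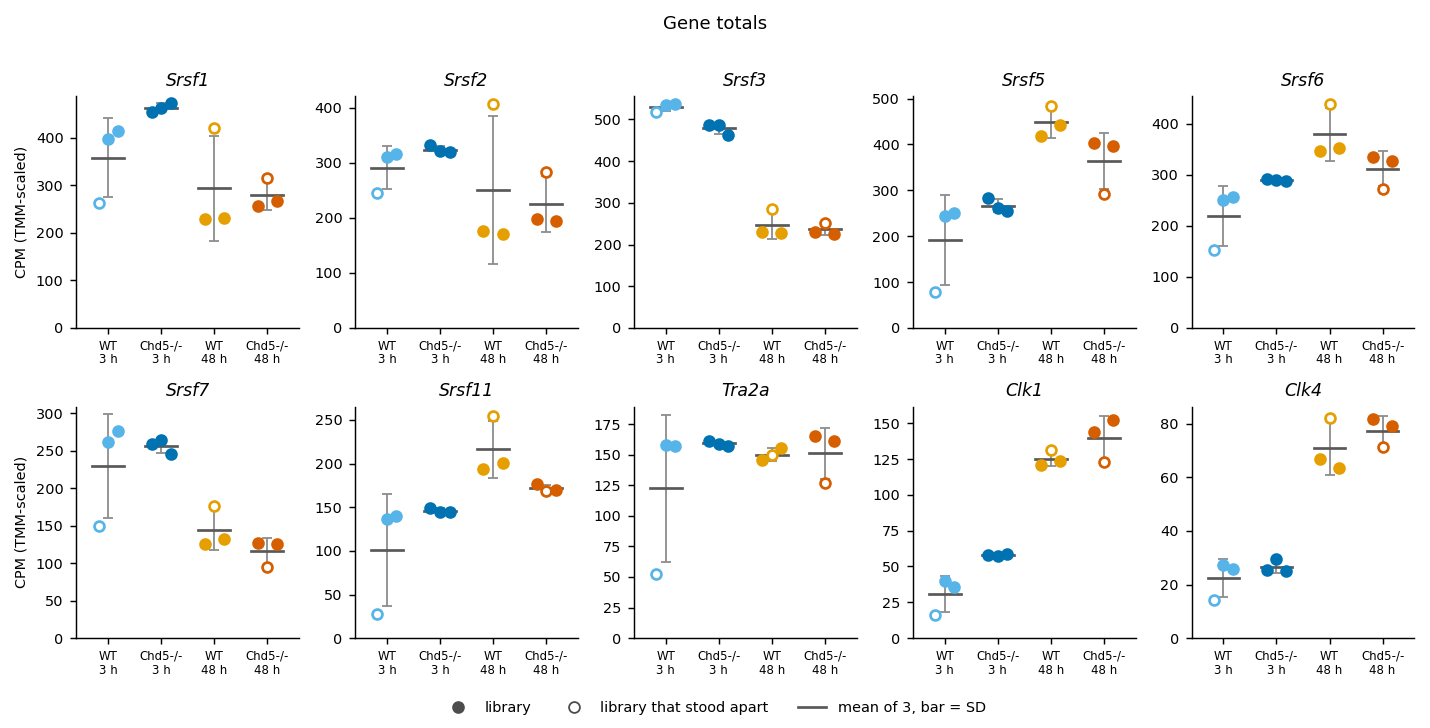
Gene totals (CPM) of the 10 members in the 12 libraries by genotype and time; points are libraries, open points the 3 that stood apart, lines the mean of 3 and bars the SD. Clk1 and Clk4 are higher and Srsf3 lower at 48 h in every library, and the open 3 h point is the lowest wild-type 3 h library in all 10 panels, for Srsf3 by a small step.

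Srsf5 and Srsf6 rose in wild type and were not called in Chd5-/-, and the difference between the genotypes was not called for either (interaction adjusted p = 0.615 and 0.52). Srsf5 totals went from 79.2, 244 and 251 to 418, 485 and 442 CPM in wild type, a rise of 1.23 ± 0.37 (log2, SE; adjusted p = 0.0372). In Chd5-/- they went from 282, 262 and 255 to 404, 293 and 396, a change of 0.45 ± 0.36 (adjusted p = 0.411). Srsf6 went from 152, 251 and 257 to 346, 440 and 353, a rise of 0.79 ± 0.24 (adjusted p = 0.0385), and in Chd5-/- from 293, 290 and 288 to 335, 273 and 328, a change of 0.11 ± 0.24 (adjusted p = 0.789). Both wild-type calls were lost when any one Chd5-/- 3 h or wild-type 48 h library, or Chd5-/- 48 h replicate 1 or 3, was left out, and that of Srsf6 also without wild-type 3 h replicate 2. Without the 3 libraries that stood apart Srsf5 rose by 0.75 ± 0.05 (adjusted p = 5.25e-09) and Srsf6 by 0.41 ± 0.03 (adjusted p = 5.9e-08) in wild type. In Chd5-/- both then rose too, Srsf5 by 0.55 ± 0.04 (adjusted p = 3.73e-08) and Srsf6 by 0.16 ± 0.03 (adjusted p = 0.000238). The interaction was called in that set for Srsf5 (-0.20 ± 0.06, adjusted p = 0.0212) and Srsf6 (-0.26 ± 0.04, adjusted p = 0.000398), with the smaller rise in Chd5-/-.

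The other 4 members were not called with 12 libraries. Srsf11 changed by 1.10 ± 0.46 in wild type (adjusted p = 0.105) and by 0.23 ± 0.46 in Chd5-/- (adjusted p = 0.752). Tra2a totals were between 127 and 165 CPM in all libraries but wild-type 3 h replicate 1, which had 52.7. Srsf1 went from 454, 463 and 472 to 256, 315 and 267 in Chd5-/-, and Srsf2 from 332, 321 and 319 to 198, 283 and 194. In wild type 48 h replicate 2 held 421 CPM of Srsf1 and 406 of Srsf2, against 229 and 232, and 176 and 171, in the other 48 h libraries. In the 9 libraries Srsf1 fell by 0.87 ± 0.04 (adjusted p = 1.47e-10) and Srsf2 by 0.90 ± 0.04 (adjusted p = 4.57e-11) in wild type, and by 0.86 ± 0.03 and 0.76 ± 0.03 in Chd5-/-.

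Genotype made no called difference in the members with all 12 libraries. For gene totals 0 of 10 were called at 3 h (6.71% of 16043 genes) and 0 at 48 h (2.74%), and the genotype by time interaction called 0 (0.231%). For the retained-intron share 0 of 10 were called at 3 h (0.0187% of 5337 genes), 0 at 48 h (0%) and 0 in the interaction (0.0187%). For the NMD share 0 were called at 3 h (0%), at 48 h (0.0387%) and in the interaction (0%). Clk1 at 3 h came nearest, at 0.92 ± 0.29 (log2 Chd5-/- over wild type, SE; unadjusted p = 0.00849, adjusted p = 0.0863). It was the 1 member with an unadjusted p under 0.05 in these 9 comparisons. DESeq2 called it (adjusted p = 0.0312), as did edgeR without wild-type 3 h replicate 1 (0.62, adjusted p = 0.0109); over the alternatives its adjusted p ran from 4.26e-07 to 0.237. All 10 interaction estimates for the retained-intron share were below 0, with a median of -1.19 against -0.55 over all genes. All of them use wild-type 3 h replicate 1, which had the lowest 3 h share of every member but Srsf3. In the 9 libraries 8 of 10 were below 0, with a median of -0.37. The share of all genes below 0 is not given here, and no member was called.

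Without the 3 libraries that stood apart, small genotype differences in gene totals were called. At 3 h Clk1 was higher in Chd5-/- by 0.62 ± 0.05 (adjusted p = 4.26e-07), Srsf6 and Srsf1 by 0.19 ± 0.03 each and Srsf5 by 0.11 ± 0.04, and Srsf3 was lower, at -0.16 ± 0.03 (5 of 10 members, 52.5% of 16489 genes). At 48 h Clk4 was higher by 0.32 ± 0.06, Clk1 by 0.29 ± 0.05, Srsf1 by 0.20 ± 0.04, Srsf2 by 0.19 ± 0.04 and Tra2a by 0.13 ± 0.04, and Srsf11 was lower, at -0.18 ± 0.04 (6 of 10, 47.2% of genes). The interaction called 7 of 10 (40.4%), from -0.33 for Clk1 to 0.32 for Clk4. For the retained-intron share 0 of 10 were called in each of the 3 genotype comparisons (0.237%, 0.0395% and 0% of 5057 genes), and 0 for the NMD share (0.0405%, 0.283% and 0.243% of 2470 genes). Genotype at 3 h and time in wild type use the same wild-type 3 h libraries, so their values are not independent.

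Cell type markers moved with time and genotype beside these results. The 4 astrocyte markers summed to 26.5 to 60.3 CPM at 3 h and to 436 to 636 in 48 h replicates 1 and 3, but to 34.9 and 110 in 48 h replicate 2 of wild type and Chd5-/-. In 48 h replicates 1 and 3 Gfap, the largest part, had 269 and 280 in wild type and 448 and 442 in Chd5-/-. S100b and Aldh1l1 were also higher in Chd5-/- there. Aqp4 went the other way, with 97.2 and 94.6 in wild type against 5.51 and 5.43. The 5 fibroblast and smooth muscle markers summed to 573 to 606 in Chd5-/- at 3 h and to 5.66 to 15.5 in all other libraries. Nearly all of that sum was Acta2, smooth muscle actin, at 598, 574 and 566 CPM, with Tagln at 6.48, 6.31 and 5.86. The collagen gene Col1a1, by contrast, had 1.06, 0.379 and 0.398 there and 2.23, 1.99 and 2.55 in wild type at 3 h, and Col1a2 and Dcn were at most 0.224 and 0.112 in these Chd5-/- libraries. None of these 9 markers was at 0 in every library. Their part in the results was not tested.

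Other SR proteins and SR kinases formed a list of 14 genes. In wild type 4 rose and 2 fell in gene totals between the times, and in Chd5-/- 3 rose and 2 fell; the medians were 0.62 and 0.33, against 0.09 and 0.04 over all genes. With 9 libraries 8 rose and 6 fell in wild type and 7 rose and 6 fell in Chd5-/-. Over all genes 12.7% rose and 10.1% fell in wild type with 12 libraries, and 14.1% and 8.03% in Chd5-/-. With 9 libraries 37.6% rose and 38.4% fell in wild type, and 38.9% and 40.1% in Chd5-/-. Tra2b, the partner of Tra2a, had 119 to 122 CPM in wild type at 48 h against 184, 337 and 341 at 3 h, and fell by 1.25 ± 0.24 (log2, SE; adjusted p = 0.00726) in wild type and by 1.77 ± 0.25 (adjusted p = 0.0012) in Chd5-/-. The kinase gene Clk2 rose by 1.17 ± 0.24 (adjusted p = 0.00828) and 0.87 ± 0.23 (adjusted p = 0.0235). The SR kinase gene Srpk3 rose from 3.05 to 8.3 CPM at 3 h to 19 to 76.1 at 48 h, with replicate 2 lowest at 48 h in both genotypes. Srsf12 rose in both genotypes, up to 3.85 CPM.

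Of these 14 genes 10 could be tested for the retained-intron share. In wild type 4 rose, with a median of 1.91, and in Chd5-/- 0 were called, with a median of 0.82. Over all genes tested 23.7% rose in wild type and 0.974% in Chd5-/-, and 33.9% and 30.7% in the 9 libraries. Those that rose were Tra2b (3.05 ± 0.62), Clk2 (2.50 ± 0.63), Clk3 (1.93 ± 0.54) and Srpk1 (1.89 ± 0.36). Clk2 had 5.31%, 20.1% and 22% in wild type at 3 h and 41.3%, 59.5% and 43.8% at 48 h. In the 9 libraries 7 of 10 rose in wild type and 6 in Chd5-/-, and the wild-type estimates were 2.38 ± 0.31 for Tra2b, 1.48 ± 0.20 for Clk2, 1.13 ± 0.26 for Clk3 and 1.71 ± 0.22 for Srpk1. Whether the 10 members differ from these 14 genes was not tested.

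Among factors that recognise and degrade NMD targets, including the exon junction complex, 0 of 15 rose and 4 fell in gene totals in wild type, and 0 rose and 2 fell in Chd5-/-. The fallen genes were the exon junction complex members Magohb (-2.04 ± 0.26), Magoh (-1.44 ± 0.28), Rbm8a (-1.86 ± 0.43) and Eif4a3 (-1.49 ± 0.37) in wild type, and Magohb (-1.21 ± 0.25) and Magoh (-0.87 ± 0.28) in Chd5-/-. Wild-type 3 h replicate 1 was above the rest of its group for all 4: Rbm8a had 423, 123 and 119 CPM and Eif4a3 576, 213 and 208 in wild type at 3 h, and 64.2, 52.9 and 65.8 and 105, 141 and 109 at 48 h. In the 9 libraries the wild-type changes were -1.90 ± 0.13 for Magohb, -1.01 ± 0.09 for Magoh, -0.95 ± 0.06 for Rbm8a and -1.02 ± 0.04 for Eif4a3, and all 4 fell in Chd5-/- as well (-1.39 ± 0.12, -0.90 ± 0.09, -0.75 ± 0.06 and -0.51 ± 0.04). Of the 15 genes 1 then rose and 7 fell in wild type, and 4 rose and 7 fell in Chd5-/-, Upf and Smg genes among them, for which no call was made with all 12 libraries. Of 20 genes of hnRNP proteins, which often act against SR proteins at splice sites, 0 rose and 7 fell in wild type and 0 rose and 11 fell in Chd5-/-; in the 9 libraries 18 fell in each, and 2 and 1 rose. Over all genes 10.1% fell in wild type and 8.03% in Chd5-/- with 12 libraries, and 38.4% and 40.1% in the 9. Rises were called for 12.7% and 14.1%, and for 37.6% and 38.9% in the 9. Hnrnpa3 fell by 1.39 ± 0.20 (adjusted p = 0.00241) and by 1.54 ± 0.20 (adjusted p = 0.000803).

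The cold-inducible RNA-binding protein genes Cirbp and Rbm3 rose in retained-intron share in both genotypes. Over all genes tested 23.7% were called as higher in wild type and 0.974% in Chd5-/-. Rbm3 had 1.58%, 6.45% and 6.24% in wild type at 3 h and 36.8%, 40.9% and 37.5% at 48 h. Cirbp had 9.77%, 4.13% and 8.06%, then 35.8%, 45.6% and 32.3%. No 48 h value of either gene overlapped the 3 h values, as for 45% of genes tested in wild type and 46.1% in Chd5-/-. The log2 ratio for Rbm3 rose by 3.81 ± 0.55 in wild type (adjusted p = 0.0058) and by 2.61 ± 0.53 in Chd5-/- (adjusted p = 0.0479), and that for Cirbp by 3.02 ± 0.49 (adjusted p = 0.00718) and 3.10 ± 0.49 (adjusted p = 0.0319). Of 5 testable noncoding host genes of small nucleolar RNAs, whose spliced RNA is degraded by NMD, 3 rose in wild type and 0 were called in Chd5-/-; Snhg5 had the largest estimate of these (4.05 ± 0.89, and 2.66 ± 0.26 in the 9 libraries, where it also rose in Chd5-/-). The nuclear noncoding RNAs Malat1 and Neat1 rose in gene totals in wild type, by 1.75 ± 0.47 (adjusted p = 0.0248) and 0.85 ± 0.18 (adjusted p = 0.0101). With 9 libraries Malat1 rose by 1.12 ± 0.06 in wild type and by 0.78 ± 0.05 in Chd5-/-, and Neat1 by 0.74 ± 0.04 in wild type.

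The genes most like the members' mean level over the 12 libraries, by Pearson's r of log2(CPM + 1), were Efcab14 (r = 0.989), Rbm25 (0.985), Atp6ap2 (0.982), Dnajc27 (0.980), Atp2c1 (0.977) and Gm10698 (0.975). All 6 were lowest in wild-type 3 h replicate 1 and highest in wild-type 48 h replicate 2, as was the members' mean. Rbm25, itself an arginine-rich splicing regulator, had 30.7 CPM in the first of these libraries, 258 in the second and 124 to 180 in the others. The members' own r with that mean ran from -0.133 for Srsf3 to 0.898 for Tra2a, so likeness to the mean is not likeness to each member. The points share depth and library composition, and the values are a description.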

How the data were processed

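RNA was measured in 12 libraries made with a stranded mRNA kit, per the labels' protocols. The authors deposited 1 Salmon table per library, per the submitters' processing notes, with estimated counts (NumReads) and TPM for each transcript, per the file headers; the sources used here give no Salmon version, index or strand setting. Transcripts were matched to GENCODE M21 (GRCm38) by identifier: 140137 of 140658 matched, and the 521 others held 0.135% to 0.181% of reads and were left out. Lengths of 139921 transcripts equalled the annotation.

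Estimated counts were summed per gene and rounded. edgeR 4.0.16 (R 4.3.3; TMM, filterByExpr with a minimum count of 10, quasi-likelihood F test, two-sided) was fitted with 1 mean per group on all 12 libraries. For the shares, the same test was run on 2 counts per gene and library (class reads and other reads) with 1 term per library and 1 class term per group, for genes with at least 10 reads in both counts in at least 3 libraries. All 10 members passed the gene filter and both share filters. P-values were adjusted (Benjamini-Hochberg) over all genes tested, and a call is an adjusted p under 0.05; SE is the log2 change divided by the square root of F. The 5 contrasts were genotype at each time, time in each genotype, and their interaction. Deposited TPM values were used in 1 alternative. The tests were checked on simulated counts.

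Alternatives were RLE factors, no filter, DESeq2 1.42.0, limma 3.58.1 on log ratios of reads or TPM, the replicate number as a block, leaving out each library, and leaving out the 3 libraries that stood apart. Same-numbered wild-type and Chd5-/- libraries deviated together at 3 h (r = 0.261, 0.133 and 0.125) and at 48 h (0.704, 0.788 and 0.705). Unlike numbers deviated together as strongly in 4 cases (0.134 and 0.136 between replicates 2 and 3 at 3 h, 0.717 and 0.713 between 1 and 3 at 48 h), so the correlations set apart only replicate 1 at 3 h and replicate 2 at 48 h. They cannot show that the numbers pair the genotypes. The main tests were unpaired, and the replicate block entered only as an alternative. Across times same-numbered r was between -0.019 and 0.02. No 2 libraries of a group agreed within counting noise. Without the 3 libraries that stood apart, the wild-type pairs left had a mean chi-square per gene of 2.23 at 3 h and 1.92 at 48 h. The Chd5-/- pair left at 48 h had 1.79. Pairs with a library that stood apart had 139 to 460.

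Named genes were the 10 members, their transcripts with at least 10% of the gene's reads in any library, up to 4 genes of each list with the smallest p in a contrast, and the 6 genes most like the members' mean. Members, lists and the 3 libraries left out were chosen with earlier results of these data known. The lists other than the members were genes of SR proteins and SR kinases, NMD and exon junction complex factors, hnRNP proteins, noncoding hosts, nuclear noncoding RNAs and cold-inducible RNA-binding proteins.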

Additional observations from a re-analysis of the deposited data

How the results depend on the processing

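Counts of members called moved most without the 3 libraries that stood apart. In gene totals 5 were then called for genotype at 3 h, 6 at 48 h, 10 for time in wild type, 9 for time in Chd5-/- and 7 for the interaction. In the same setting 10 were called for the retained-intron share over time in Chd5-/-, and 3 and 4 for the NMD share over time in wild type and Chd5-/-. DESeq2 called 1 for genotype at 3 h, and no filter on low counts called 3 for time in wild type. Shares of all genes called are not given here for either setting. For the retained-intron share over time in Chd5-/-, 0 were called with no minimum of reads. With both biotypes as 1 class, 6 and 2 were called over time in wild type and Chd5-/-, against 0 for the NMD share, which leaves out the retained-intron reads. The cause was not tested, except that fewer libraries enter where libraries are left out.

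With the replicate block, and with a replicate block within each time (added after the data were seen), 0 members were called for the retained-intron share over time in Chd5-/-, against 2 without it; the block moved no other count of calls by over 1.5 times.

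Leaving out each library in turn gave, for gene totals, 0 to 1 members called for genotype at 3 h (1 without wild-type 3 h replicate 1), 0 at 48 h, 3 to 7 for time in wild type, 3 to 6 for time in Chd5-/- and 0 for the interaction. For the retained-intron share it gave 6 to 10 in wild type (6 without wild-type 48 h replicate 2, 10 without wild-type 3 h replicate 1), 0 to 10 in Chd5-/- (10 without wild-type 3 h replicate 1) and 0 in the other contrasts. For the NMD share it gave 0 to 1 over time in Chd5-/- and 0 elsewhere. The share of all genes called is not given here for these fits, so the ranges show only how the members' calls moved.

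The following single values changed sign and were called in the alternative. Without the 3 libraries these were gene totals of Srsf1 (0.197) and Srsf2 (0.19) for genotype at 48 h, Tra2a (-0.111) for time in wild type, and Srsf2 (0.141) and Clk4 (0.321) for the interaction. With both biotypes as 1 class, Srsf5 (2.93) and Clk4 (1.606) over time in wild type had the opposite sign to their NMD shares. So did Srsf11 (2.397) over time in Chd5-/-. That class also holds the retained-intron reads, so it is another quantity and these are not reversals of the NMD result. Of 2800 single values under an alternative, 119 others changed sign where neither was called. Depth was lowest for Clk4 and Clk1 in wild-type 3 h replicate 1, with 139 and 162 reads.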
